A study of Mus musculus with 12 samples.

Results

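The genes described here encode 10 surface receptors and ligands with which macrophages bind modified lipoproteins, microbial products and dying cells: Marco, Msr1, Mrc1, Cd163, Stab1, Mertk, Axl, Gas6, Lrp1 and Cd14. They were chosen by symbol and are 10 of the 16570 genes in the deposited table, and all 10 passed the filter on low counts, which left 12168 genes for testing. RNA was sequenced from bone marrow-derived macrophages of C57BL/6J mice aged 6 to 8 weeks, with 3 libraries in each of 4 groups. All groups received M-CSF, the macrophage survival factor, at 50 ng/mL, for 2 days per the treatment protocol. The growth protocol describes a longer culture with RANKL, so the time with RANKL rests on the treatment protocol alone. The first group had M-CSF alone, the second also had RANKL, the osteoclast-inducing cytokine, at 100 ng/mL, and the others had RANKL with 1 µM BMS309403 or 1 µM RHC80267. Of these compounds, BMS309403 blocks the lipid carrier FABP4 and RHC80267 blocks the enzyme diacylglycerol lipase. No group had an inhibitor without RANKL, so an inhibitor's action on macrophages outside the RANKL response was not measured. Nothing in the labels tells whether libraries of a group came from separate animals or cultures, and the p-values therefore cover only the spread among these samples, possibly technical.

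Scavenger receptors are a structurally mixed set of proteins that recognise polyanionic ligands such as oxidised lipoproteins, bacterial surfaces and cell debris and carry them into endosomes. Efferocytosis is the engulfment of apoptotic cells. In macrophages it runs largely through the TAM receptor kinases MERTK and AXL, which bind phosphatidylserine on the dying cell through the bridging ligand GAS6 and, for MERTK, also protein S. Macrophages commonly use MERTK in the resting or tolerant state and AXL after inflammatory stimulation. Resident bone marrow macrophages are known for such receptors, whereas the mature osteoclast is specialised for bone resorption.

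Sequences just upstream of the genes are shown first, because several of the genes moved together and others moved the opposite way. Each window holds the 250 bases before a RefSeq start site on GRCm38.p6 and is written 5′ to 3′ on the gene's strand. A stretch just after the start site was sought in the gene's GENCODE transcripts. It was not found for Mertk, Axl and Gas6 and was found for the other windows. The last 15 bases of the Cd163 window and the last 10 of the Stab1 window lie inside the gene's deposited span. Capitals mark the core motif of PU.1, the master transcription factor of macrophages, written GAGGAA or as its reverse complement TTCCTC. Marco, Cd163, Mertk and Stab1 are shown because they fell with RANKL and rose with RHC80267, and Mrc1 and Lrp1 because they fell in both comparisons. Axl also fell in both, but 191 of the 250 bases of its window lie inside the deposited span of the gene, and it is not shown.
Marco (chr1:120505025-120505274, minus strand): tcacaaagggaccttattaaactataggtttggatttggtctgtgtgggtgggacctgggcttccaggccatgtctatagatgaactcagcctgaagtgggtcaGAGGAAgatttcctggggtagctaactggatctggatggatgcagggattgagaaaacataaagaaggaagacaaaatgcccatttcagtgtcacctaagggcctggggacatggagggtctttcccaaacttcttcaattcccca
Cd163 (chr6:124304401-124304650, plus strand): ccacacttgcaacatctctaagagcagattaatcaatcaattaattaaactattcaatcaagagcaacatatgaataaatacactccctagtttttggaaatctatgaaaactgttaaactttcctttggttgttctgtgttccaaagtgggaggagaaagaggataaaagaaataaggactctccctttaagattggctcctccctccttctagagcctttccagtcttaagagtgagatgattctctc
Mertk (chr2:128698665-128698914, plus strand): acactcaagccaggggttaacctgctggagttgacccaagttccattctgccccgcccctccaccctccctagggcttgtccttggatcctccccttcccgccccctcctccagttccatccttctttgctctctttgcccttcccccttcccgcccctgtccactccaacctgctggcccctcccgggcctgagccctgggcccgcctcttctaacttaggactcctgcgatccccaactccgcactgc
Stab1 (chr14:31168642-31168891, minus strand): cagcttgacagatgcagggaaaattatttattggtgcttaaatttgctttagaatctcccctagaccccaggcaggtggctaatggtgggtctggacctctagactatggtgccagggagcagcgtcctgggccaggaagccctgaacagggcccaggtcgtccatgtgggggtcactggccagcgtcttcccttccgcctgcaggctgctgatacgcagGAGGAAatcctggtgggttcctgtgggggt
Mrc1 (chr2:14229164-14229413, plus strand): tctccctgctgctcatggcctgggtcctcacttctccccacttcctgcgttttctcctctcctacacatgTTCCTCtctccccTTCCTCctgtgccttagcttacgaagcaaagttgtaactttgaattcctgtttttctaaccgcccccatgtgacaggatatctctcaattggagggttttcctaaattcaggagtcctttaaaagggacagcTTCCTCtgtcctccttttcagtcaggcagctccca
Lrp1 (chr10:127621149-127621398, minus strand): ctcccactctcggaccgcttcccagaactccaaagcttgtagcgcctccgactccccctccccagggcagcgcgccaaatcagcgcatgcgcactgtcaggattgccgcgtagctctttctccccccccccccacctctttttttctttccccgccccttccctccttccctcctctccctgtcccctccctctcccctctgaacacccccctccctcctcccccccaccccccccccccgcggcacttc
RefSeq windows were found for 8 of the 10 genes, and Msr1 and Cd14 had no entry. The PU.1 core was in 4 of the 8 windows on either strand, in those of Marco, Stab1, Axl and Mrc1, as against 23.3% of 32851 windows of the same length over all genes. In the Marco window it lay 146 bases before the start, and in that of Stab1 30 bases. The Axl match, 130 bases before the start site used, lies inside the deposited span of that gene and so not upstream of all of it. The Mrc1 window held it at 180, 167 and 35 bases. The motif was thus in windows of genes that rose and of genes that fell with RHC80267. Of 6 other motifs searched on both strands, the glucocorticoid receptor motif AGAACA was in 1 window, that of Cd163 at 119 bases, as against 16.1% of all windows. The NFAT core GGAAAA, which can overlap the PU.1 core, was in the windows of Mrc1 and Stab1 (20.4% of all windows), and the Maf motif TGCTGA was in that of Stab1 (16.1%). The AP-1 site TGANTCA, the MITF and TFE E-box CACGTG and the interferon response element core were in none of the 8, and in 6.75%, 6.02% and 2.98% of all windows. These matches describe letters in short windows and say nothing of binding.

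Total expected counts per library ranged from 17760844 to 18344989. The summed level of 8 macrophage markers was 31186 to 31643 CPM (read counts scaled to a common library size) with M-CSF and 24810 to 26451 with RANKL. It was 27419 to 29015 CPM in the BMS309403 libraries and 19833 to 20891 in those with RHC80267. Over the same groups, 9 osteoclast markers summed to 108 to 132, 8220 to 10201, 6712 to 7570 and 16130 to 18251 CPM. In such bulk libraries, fewer cells of a type and less RNA per cell cannot be told apart. Of 10 stromal markers, 9 were in the table and none of these was at 0 in every library. They summed to 6.22 to 11.5 CPM with M-CSF, 5.13 to 13.7 with RANKL and 5.57 to 8.85 with BMS309403. With RHC80267 they summed to 60.3 CPM in replicate 1, and to 16.4 and 13.9 in replicates 2 and 3. The endothelial, neutrophil, dendritic and lymphoid lists were lower with RHC80267 than with RANKL in every library: 8 endothelial markers, of which Emcn reached at most 1 count, at 40.7 to 49.2 against 73.9 to 86.1 CPM, 8 neutrophil markers at 672 to 1002 against 1419 to 1626, 7 dendritic markers at 22.5 to 26.6 against 38.0 to 41.6, and 7 lymphoid markers at 1.09 to 1.63 against 3.55 to 5.46. These are sums and do not hold for each marker. Of the endothelial list, Vwf had a mean of 50.6 CPM with RANKL and 22.6 with RHC80267, but Stab2 13.1 and 15.9. A list of 8 erythroid, megakaryocyte and mast cell markers was at 299 to 314 CPM with M-CSF and 93.9 to 96.5 with RANKL. The BMS309403 libraries held 102 to 116 CPM of these and the RHC80267 libraries 116 to 120.

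RANKL was set against M-CSF alone to ask how the osteoclast signal alters these receptors. Of the 10 genes, 9 fell and 1, Msr1, rose. A gene is called at an adjusted p below 0.05, and 61.2% of all genes tested were called in this comparison, 29.8% as lower and 31.4% as higher. The median change of the 10 was −1.25 on the log2 scale, as against 0.0028 over all genes tested. Marco fell to 11.7% of its M-CSF mean and Cd163 to 18.4%, while Mertk kept 66.8% and Lrp1 64.2%.

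Marco (gene 17167, chromosome 1, 120474538 to 120505024, minus strand) encodes a class A scavenger receptor that binds bacteria and particles. It was at 64.8, 46.8 and 60.0 CPM in the M-CSF libraries and at 7.16, 6.24 and 6.71 CPM with RANKL. The groups were far apart, and the fall was 8.52-fold (log2 change −3.09 ± 0.15, SE, adjusted p = 4.36e-14). Msr1 (gene 20288, chromosome 8, 39543232 to 39642750, minus strand), the other class A receptor and a main route of uptake of modified LDL, was at 398, 387 and 413 CPM with M-CSF. With RANKL it was at 450, 438 and 427 CPM. Every RANKL library lay above every M-CSF library, but the rise was only 0.13 ± 0.04 on the log2 scale (adjusted p = 0.00415).

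Cd163 (gene 93671, chromosome 6, 124304636 to 124330529, plus strand) encodes the receptor that clears haptoglobin-bound haemoglobin. Its level was 14.3, 16.4 and 15.9 CPM with M-CSF and 3.50, 2.54 and 2.57 CPM with RANKL, where it rested on 46 to 64 counts per library. The log2 change of Cd163 was −2.44 ± 0.14 (adjusted p = 1.44e-12). Stab1 (gene 192187, chromosome 14, 31139017 to 31168651, minus strand) encodes stabilin-1, an endocytic receptor for modified LDL and extracellular debris. It was at 3411, 3373 and 3372 CPM with M-CSF and at 1133, 1328 and 1289 CPM with RANKL, a change of −1.44 ± 0.06 (adjusted p = 1.66e-15). Mrc1 (gene 17533, chromosome 2, 14229414 to 14332023, plus strand), the mannose receptor CD206, went from 1268 to 1321 CPM with M-CSF to 582 to 675 CPM with RANKL. Its change of −1.01 ± 0.06 (adjusted p = 8.97e-13) left 49.8% of the M-CSF mean.

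The TAM genes Gas6, Axl and Mertk all fell. The ligand gene Gas6 (gene 14456, chromosome 8, 13465374 to 13494535, minus strand) was at 826, 857 and 883 CPM with M-CSF and at 256, 299 and 319 CPM with RANKL (−1.56 ± 0.06, adjusted p = 8.08e-16). Axl (gene 26362, chromosome 7, 25756500 to 25788924, minus strand) was at 134, 131 and 133 CPM and then at 61.4, 58.2 and 56.7 CPM (−1.18 ± 0.05, adjusted p = 1.17e-14). Mertk (gene 17289, chromosome 2, 128698915 to 128803162, plus strand) fell least, from 179, 162 and 179 CPM to 103, 120 and 125 CPM (−0.58 ± 0.06, adjusted p = 1.03e-08). Of all genes tested, 61.2% were called in this comparison, 29.8% as lower.

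Lrp1 (gene 16971, chromosome 10, 127538157 to 127621148, minus strand) encodes a large endocytic receptor that also binds calreticulin on dying cells. It was at 1165 to 1238 CPM with M-CSF and 734 to 813 CPM with RANKL (−0.64 ± 0.06, adjusted p = 2.70e-09). Cd14 (gene 12475, chromosome 18, 36725064 to 36726815, minus strand) encodes the lipopolysaccharide co-receptor of TLR4, which also tethers apoptotic cells. Its level was 369, 392 and 394 CPM with M-CSF and 152, 153 and 154 CPM with RANKL. The RANKL libraries were nearly equal and far below M-CSF (−1.33 ± 0.04, adjusted p = 1.17e-16). Annotated genes that are also in the deposited table overlap Stab1 (Nt5dc2) and Gas6 (Tmem255b). Their mean levels were at most 75.9 and 1.77 CPM in any group, and whether counting used strand is not given in the sources used here.

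**Figure D1:**
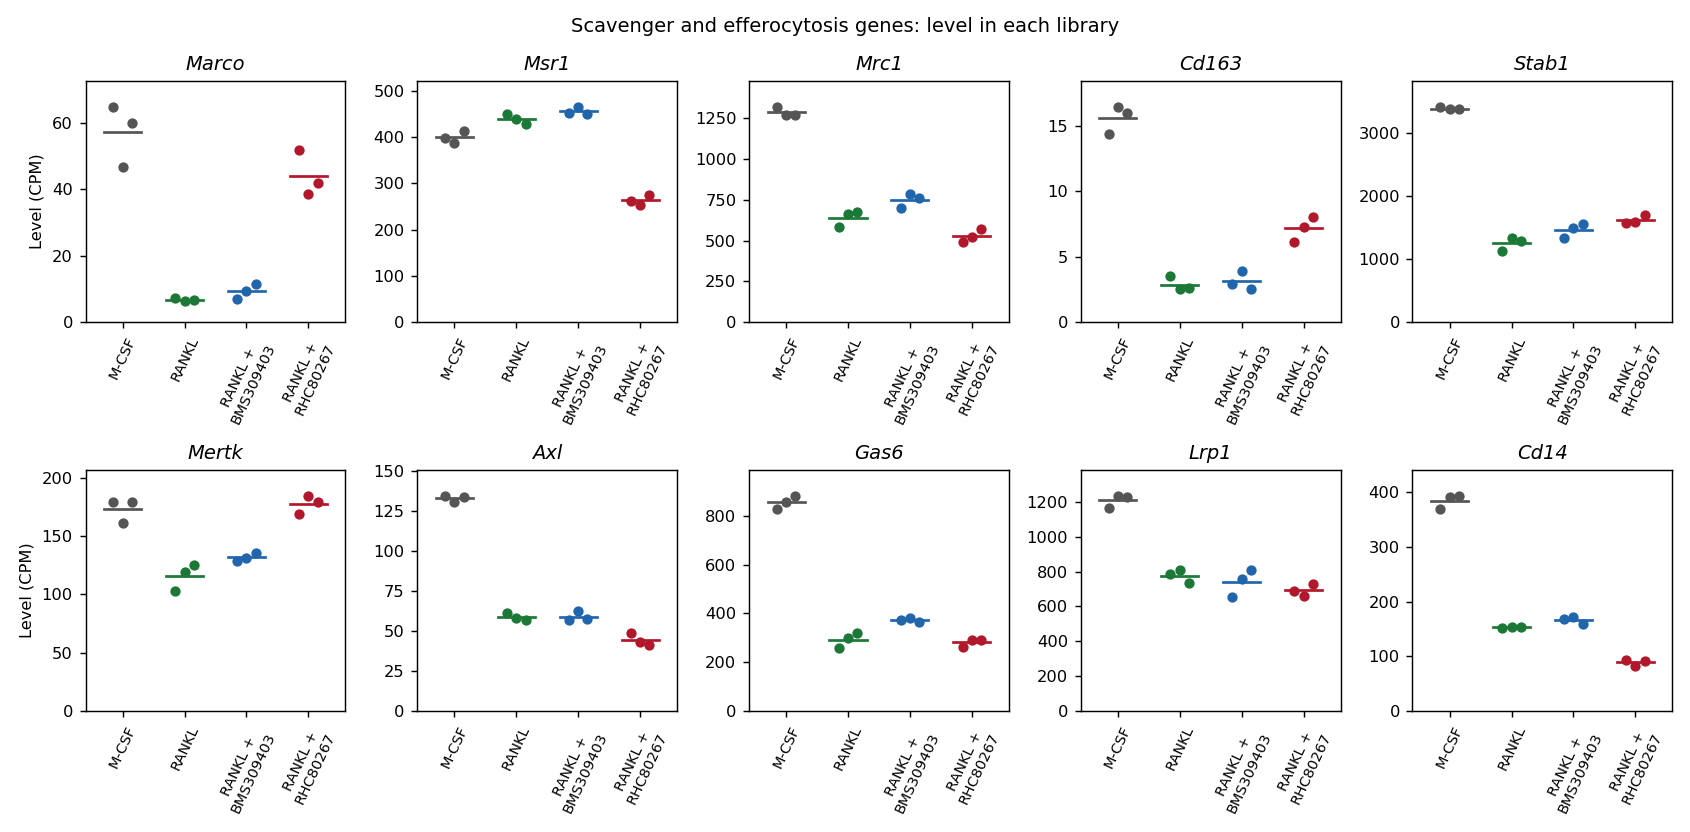
Level of each of the 10 genes in CPM (vertical axes, each from 0) in the 12 libraries, by culture group; points are libraries and bars are means of 3. Marco was at 6.24 to 7.16 CPM with RANKL and at 38.5 to 51.9 CPM with RANKL and RHC80267, while Msr1 and Cd14 were lowest with RHC80267.

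Adding RHC80267 to RANKL addresses the effect of the diacylglycerol lipase inhibitor in RANKL-treated cells. The 10 genes divided: Marco, Cd163, Mertk and Stab1 rose, Msr1, Cd14, Axl, Mrc1 and Lrp1 fell, and Gas6 was not called. The share of all genes called was 49.9%, 26.9% higher and 23% lower, so the number of calls among the 10 is read against that. Their median change was −0.11, as against 0.02 over all genes tested. Between the same libraries, the osteoclast markers were at 16130 to 18251 against 8220 to 10201 CPM and the macrophage markers at 19833 to 20891 against 24810 to 26451 CPM. The endothelial, neutrophil, dendritic and lymphoid lists were also lower, and the erythroid list and the stromal markers were higher, the latter mostly in replicate 1. The part of these lists in the results was not tested. Without that replicate the changes on the log2 scale were 2.58 for Marco, 1.41 for Cd163, 0.66 for Mertk, 0.40 for Stab1 and −0.48 for Axl.

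Marco was at 51.9, 38.5 and 41.8 CPM with RHC80267, against 6.24 to 7.16 CPM with RANKL alone. Every RHC80267 library lay above every RANKL library, and the rise was 6.57-fold (log2 change 2.72 ± 0.15, adjusted p = 2.86e-12). This was 77.1% of the M-CSF mean, and the RHC80267 replicate 1 library lay above the M-CSF replicate 2 library. Against M-CSF, Marco was still lower by edgeR, at −0.37 ± 0.11 (adjusted p = 0.00377), which DESeq2 did not call (adjusted p = 0.0701). Cd163 was at 6.14, 7.30 and 8.03 CPM with RHC80267, above all 3 RANKL libraries (1.31 ± 0.16, adjusted p = 5.45e-07). It remained below M-CSF, at 46.0% of that mean (−1.12 ± 0.12, adjusted p = 1.98e-08).

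Mertk was at 169, 185 and 180 CPM with RHC80267, against 103 to 125 CPM with RANKL (0.62 ± 0.06, adjusted p = 9.80e-09). These values overlapped those of M-CSF. The difference between RHC80267 and M-CSF was 0.04 on the log2 scale, with a 95% interval from −0.08 to 0.15 (adjusted p = 0.561). Stab1 was at 1565, 1586 and 1706 CPM with RHC80267, above the RANKL libraries at 1133 to 1328 CPM. Its rise was 0.37 ± 0.05 (adjusted p = 8.22e-06), and its level was 47.8% of the M-CSF mean.

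Msr1, which had risen with RANKL, was at 262, 254 and 274 CPM with RHC80267. All 3 libraries were below those of every other group, and the change from RANKL was −0.74 ± 0.04 (adjusted p = 1.22e-12). Cd14 was at 93.2, 82.0 and 91.2 CPM with RHC80267. Its change from RANKL was −0.79 ± 0.05 (adjusted p = 1.05e-11), and its mean was 23.1% of that with M-CSF. Axl was at 48.7, 43.2 and 41.0 CPM, below the RANKL libraries at 56.7 to 61.4 CPM (−0.41 ± 0.06, adjusted p = 3.79e-06). Mrc1 was at 493 to 574 CPM, against 582 to 675 CPM, with its highest library just under the lowest RANKL library (−0.27 ± 0.06, adjusted p = 0.000381).

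Lrp1 was at 662 to 731 CPM with RHC80267 (−0.16 ± 0.06, adjusted p = 0.0223). This call is not firm, being lost with DESeq2 (adjusted p = 0.0701), on library totals (adjusted p = 0.0837) and without RANKL replicate 1 or 2 or RHC80267 replicate 1 or 2 (adjusted p = 0.0504, 0.0797, 0.0551 and 0.104). Gas6 was at 261, 291 and 289 CPM, within the range of the RANKL libraries. Its change was −0.05, with a 95% interval from −0.17 to 0.07 (adjusted p = 0.470), and it was called at −0.14 without RANKL replicate 1 (adjusted p = 0.0217). The TAM genes thus differed in direction, with Mertk higher, Axl lower and no call for Gas6.

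Adding BMS309403 to RANKL addresses the effect of the FABP4 inhibitor. The changes were small: Gas6, Stab1 and Mrc1 rose by 0.36, 0.23 and 0.23 on the log2 scale, and the other 7 genes were not called. Here 7.26% of all genes were called, 3.51% higher and 3.76% lower. By edgeR 0 of the 10 were lower, with 0 at an unadjusted p below 0.05 and 0 by DESeq2. Unadjusted, 6 of the 10 were higher, and DESeq2 called 4. The median change of the 10 was 0.15, as against −0.01 over all genes tested. The macrophage markers also summed higher and the osteoclast markers lower with BMS309403 than with RANKL, without overlap, and their part in these changes was not tested.

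Gas6 was at 371, 381 and 365 CPM with BMS309403, above the RANKL libraries at 256, 299 and 319 CPM. Its rise was 0.36 ± 0.06 (adjusted p = 0.000684) and stayed called without any single library, at 0.27 to 0.43. Stab1 was at 1338, 1500 and 1561 CPM against 1133 to 1328 CPM (0.23 ± 0.05, adjusted p = 0.0130). Its lowest BMS309403 library and highest RANKL library were nearly equal, and the call is lost without RANKL replicate 1 (0.16, adjusted p = 0.106) or without BMS309403 replicate 2 or 3 (adjusted p = 0.0693 and 0.0611). Mrc1 was at 700 to 788 CPM against 582 to 675 CPM (0.23 ± 0.06, adjusted p = 0.0158), a call lost when RANKL replicate 1 was left out (0.16, adjusted p = 0.132) and when BMS309403 replicate 2 was (adjusted p = 0.105). Without either of these 2 libraries only Gas6 stayed called, so 1 gene was higher in place of 3.

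Mertk was at 129, 131 and 135 CPM with BMS309403, above all RANKL libraries, but at 0.19 ± 0.06 it missed the threshold (adjusted p = 0.0522). It was called under 7 alternatives: DESeq2 (adjusted p = 0.0293), RLE factors (0.0481), no filter (0.0137), the stricter filter (0.0455), only the groups compared (0.0379), a term for the replicate number (0.0388) and without RANKL replicate 3 (log2 change 0.25, adjusted p = 0.0129). Marco was at 6.98, 9.36 and 11.4 CPM and overlapped the RANKL libraries. Its change of 0.46 had a 95% interval from 0.06 to 0.87 and was not called (adjusted p = 0.180). Cd14 was at 0.12 (95% interval 0.02 to 0.21, adjusted p = 0.130), and Cd163 at 0.11 (−0.28 to 0.50, adjusted p = 0.814). For Msr1 the value was 0.06 (−0.02 to 0.13, adjusted p = 0.460) and for Lrp1 −0.07 (−0.19 to 0.05, adjusted p = 0.557). Axl had equal means of 58.7 CPM in both groups (95% interval of the log2 difference −0.11 to 0.11, adjusted p = 0.994). Against M-CSF, the same 9 genes were lower with BMS309403 and RANKL as with RANKL alone, and Msr1 was higher (57% of all genes called, 29.7% higher and 27.3% lower).

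**Figure D2:**
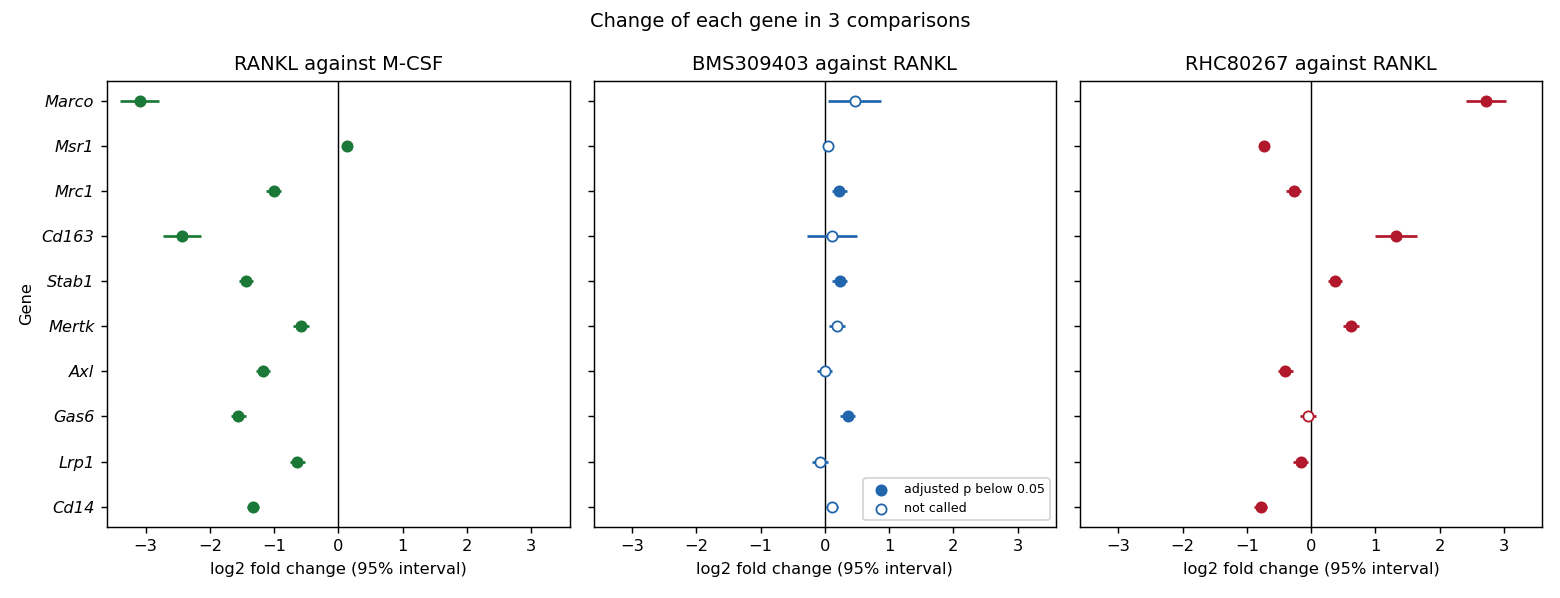
Log2 fold change of each gene (horizontal axis) with its 95% interval in 3 comparisons; filled points have an adjusted p below 0.05. Marco lies at −3.09 with RANKL against M-CSF and at 2.72 with RHC80267 against RANKL, and the BMS309403 values all lie between −0.07 and 0.46; the last 2 panels share the RANKL libraries.

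Both inhibitor comparisons use the same 3 RANKL libraries, so the inhibitors were also compared directly. With RHC80267 against BMS309403, 55.5% of all genes were called, 30.1% higher and 25.5% lower, and of the 10 genes 4 were higher and 5 lower. Marco was 4.77-fold higher with RHC80267 (log2 difference 2.25 ± 0.14, adjusted p = 1.32e-11) and Cd163 2.30-fold (1.20 ± 0.16, adjusted p = 1.11e-06). Mertk differed by 0.43 ± 0.06 (adjusted p = 1.19e-06). Stab1 differed by 0.14 ± 0.05 (adjusted p = 0.0314), a call lost without BMS309403 replicate 1 (0.06) or 2 or RHC80267 replicate 3 (0.10), or with the stricter filter. Gas6 was lower with RHC80267 by 0.41 on the log2 scale (−0.41 ± 0.06, adjusted p = 3.50e-06), and so were Cd14 at −0.90, Msr1 at −0.79, Mrc1 at −0.50 and Axl at −0.41. Lrp1 was not called at −0.09 (95% interval −0.21 to 0.03), but it was at −0.20 and called without BMS309403 replicate 1 (adjusted p = 0.00245).

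The order of the 4 group means thus differed between genes. For Marco, Cd163 and Stab1 it was M-CSF, then RHC80267, BMS309403 and RANKL, and the last neighbours were not called apart for Marco and Cd163. For Mertk, RHC80267 and M-CSF at the top were not called apart, nor BMS309403 and RANKL at the bottom. Axl and Lrp1 ran from M-CSF through RANKL and BMS309403 to RHC80267, with RANKL and BMS309403 not called apart for either and BMS309403 and RHC80267 not for Lrp1. Mrc1, Gas6 and Cd14 ran from M-CSF through BMS309403 and RANKL to RHC80267. Among these, RANKL was not called apart from RHC80267 for Gas6, nor from BMS309403 for Cd14. Msr1 was highest with BMS309403, not called apart from RANKL, then M-CSF, and lowest with RHC80267. With RANKL and RHC80267 against M-CSF 9 genes were lower, and edgeR called 0 higher (0 at an unadjusted p below 0.05, 0 by DESeq2), with 70.4% of all genes called, 36% higher and 34.4% lower.

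Levels of different genes were compared per length, with the deposited FPKM (fragments scaled to transcript length and library size). Stab1 was the highest of the 10 in every group, at 434 ± 4.70 FPKM with M-CSF (SD, n = 3) and 164 ± 12.8 with RANKL. BMS309403 gave 187 ± 14.6 and RHC80267 gave 218 ± 10.8 FPKM. Cd163 was the lowest in every group, at 3.94 ± 0.253 FPKM with M-CSF and 0.740 ± 0.147 with RANKL. Msr1 was at rank 5 of the 10 with M-CSF at 147 ± 11.4 FPKM and at rank 2 with RANKL at 159 ± 5.93 FPKM, where Gas6, Cd14 and Mrc1 had fallen below it.

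The balance within receptor pairs was computed as a ratio of FPKM in each library. Mertk was at 1.25, 1.16 and 1.26 times Axl with M-CSF and at 1.58, 1.94 and 2.07 times with RANKL. With BMS309403 the ratio was 2.13, 1.98 and 2.21, and with RHC80267 it was 3.25, 4.03 and 4.11. The RHC80267 libraries thus had the most Mertk per Axl, without overlap with any other group. Marco was at 0.203 to 0.285 times Msr1 with M-CSF and 0.0245 to 0.0276 with RANKL. The BMS309403 libraries had 0.0269 to 0.0424 and the RHC80267 libraries 0.256 to 0.323. This ratio overlapped between M-CSF and RHC80267, although Marco and Msr1 were each below their M-CSF level with RHC80267. Gas6, the ligand, was at 8.42 to 9.65 times Mertk with M-CSF and 4.55 to 4.64 with RANKL. The BMS309403 libraries had 4.91 to 5.30 and the RHC80267 libraries 2.82 to 2.93. In 9 2-sided exact permutation tests against RANKL, every ratio with M-CSF or RHC80267 had p = 0.1, the smallest that 3 against 3 libraries allow, and an adjusted p of 0.129. With BMS309403 the exact p was 0.2 for Mertk over Axl, 0.3 for Marco over Msr1 and 0.1 for Gas6 over Mertk. The pairs were chosen after values were seen and no such test can fall below 0.1, so no conclusion is drawn from these tests.

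**Figure D3:**
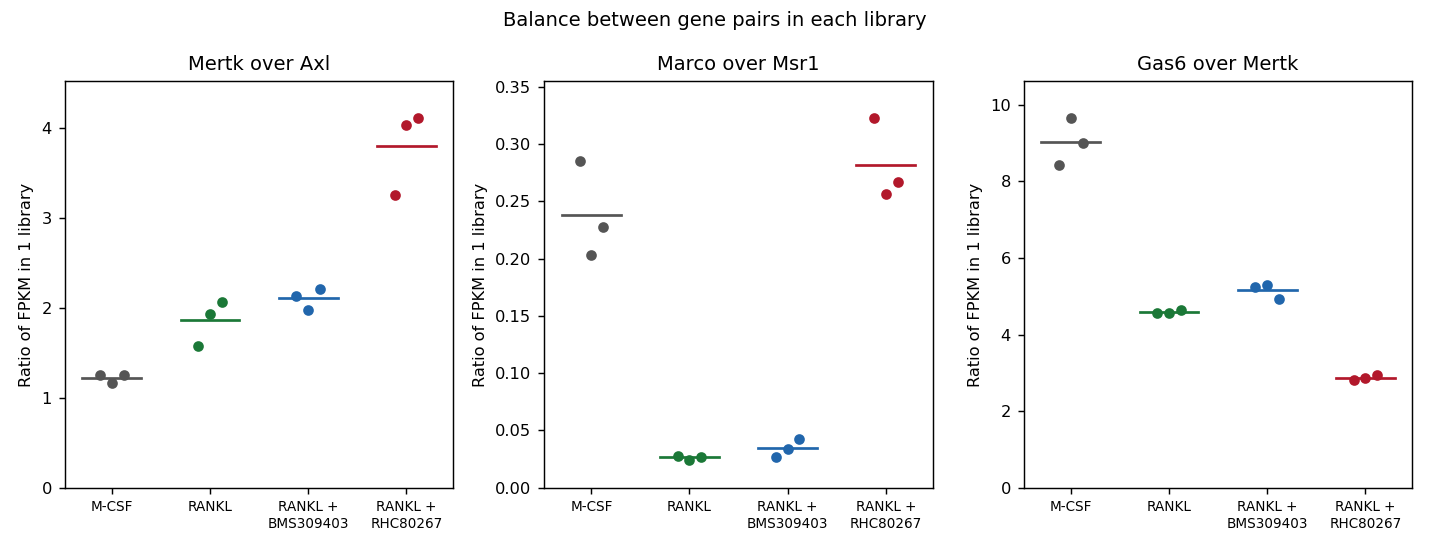
Ratio of FPKM of 2 genes within each library (vertical axes, from 0) by culture group; points are libraries and bars are means of 3. Mertk over Axl is highest with RHC80267, at 3.25 to 4.11, and Marco over Msr1 is at 0.256 to 0.323 with RHC80267 against 0.0245 to 0.0276 with RANKL.

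Related genes outside the 10 were taken from 6 lists. With RANKL, 8 of 16 other scavenger receptors tested fell and 4 rose, with a list median of −0.35. Of all genes tested, 29.8% fell and 31.4% rose in that comparison. The number of the 16 risen was 6 on library totals and 3 with DESeq2 or no filter. It was 3 also without M-CSF replicate 1 or 2 or any 1 RANKL library. Cd36, a receptor for oxidised LDL and fatty acids, went from 1296 ± 57.6 to 388 ± 12.1 CPM (−1.74 ± 0.04, adjusted p = 1.07e-18), and Cd5l, a secreted scavenger protein, from 58.9 ± 3.87 to 9.44 ± 0.894 CPM (−2.64 ± 0.08). Scarb1, the HDL receptor, fell by 0.78 and Lrp8, a receptor for apolipoprotein E, by 1.22. Of the 4 that rose, Ssc5d was at 4.01 to 4.48 on the log2 scale over the alternatives. Ssc5d was also called higher with RHC80267 than with RANKL, a call lost without RANKL replicate 2 or 3 or RHC80267 replicate 3. With RHC80267 against RANKL 6 of the 16 fell and 4 rose, with only 2 risen without RHC80267 replicate 3, where 23% of all genes fell and 26.9% rose in the full comparison. Cxcl16, a membrane-bound chemokine that binds oxidised lipids, was at −0.67 and Colec12 at −0.47, while Scarf1, an endothelial-type scavenger receptor, was at 0.55. With BMS309403 Cxcl16 rose by 0.16 and Ssc5d fell by 0.81 on the log2 scale, 1 of 16 in each direction, as against 3.51% of all genes higher and 3.76% lower. Both calls are lost without RANKL replicate 1. That of Cxcl16 is lost also on library totals or without RANKL replicate 2 or BMS309403 replicate 1, and that of Ssc5d without BMS309403 replicate 2 or 3. Scarb2 at 0.14 and Cd36 at 0.10 were not called with BMS309403 (adjusted p = 0.0573 and 0.217).

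Among 18 other apoptotic cell receptors and bridging proteins tested, 7 fell and 5 rose with RANKL, against 29.8% and 31.4% of all genes. Those that rose included Itgb3, the beta chain of the vitronectin receptor and also among the osteoclast markers, from 18.3 ± 3.14 to 128 ± 14.0 CPM (2.81 ± 0.10), Anxa1, which bridges to formyl peptide receptors, at 1.64, and Calr, the eat-me signal calreticulin, at 0.58. Itgb5, which pairs with the same alpha chain as Itgb3, fell by 0.98. With RHC80267 9 of the 18 fell and 3 rose, or 6 risen on library totals, against 23% and 26.9% of all genes. Thbs1, thrombospondin, a bridge between dying cells and CD36, was at −1.45, the lipid-binding receptors Cd300lf and Cd300lb were at −1.04 and −0.69, and Itgb3 was at 1.22. With BMS309403 6 of the 18 rose and 2 fell, against 3.51% and 3.76% of all genes. Without RANKL replicate 1 the counts were 3 and 1. The number fallen was 1 also with DESeq2 or without BMS309403 replicate 2, and 3 on library totals. C1qa, C1qb and C1qc, the chains of the complement opsonin C1q, rose by 0.36, 0.31 and 0.26, and Itgav was at −0.30. Tyro3, the third TAM receptor, reached at most 6 counts in any library and Timd4, a phosphatidylserine receptor, at most 2, so neither was tested.

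In the list of engulfment signalling and corpse handling, 15 of 19 genes tested fell with RANKL and 2 rose, with a list median of −0.31, against 29.8% and 31.4% of all genes. Rxra, the partner of lipid-sensing nuclear receptors, was at −0.65, Cybb, a subunit of the phagocyte oxidase, at −0.59 and Elmo1, which couples apoptotic cell receptors to Rac, at −0.58. Nr1h3, the sterol receptor LXR alpha, rose from 7.30 ± 1.37 to 27.2 ± 1.09 CPM (1.90 ± 0.09). With RHC80267 6 of the 19 fell and 3 rose, against 23% and 26.9% of all genes. The number risen was 2 without RANKL replicate 1 or 2 or RHC80267 replicate 1 and 6 on library totals. It was 2 also with no filter, the stricter filter or only the groups compared. Abca1, the cholesterol exporter, and Cybb were each at −0.62, Adam17, the protease that sheds MERTK, at −0.32 and Lrpap1, the chaperone of LRP1, at −0.23. With BMS309403, where 3.51% of all genes rose, Abca1, Adam17 and Nr1h2 rose by 0.21, 0.15 and 0.14, and all 3 calls are lost without RANKL replicate 1 or BMS309403 replicate 2. The calls of Abca1 and Nr1h2 are lost also without BMS309403 replicate 3, that of Adam17 without RANKL replicate 3 and that of Nr1h2 without RANKL replicate 2. On library totals all 3 calls are lost as well. Those of Abca1 and Nr1h2 are lost with DESeq2, and that of Nr1h2 with only the groups compared. Lrpap1 at 0.11 was not called (adjusted p = 0.0696).

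Of 12 partner genes of CD14 and the Toll-like receptors, 7 fell with RANKL, against 29.8% of all genes, with Tlr2 at −0.81, Ly86, the partner of CD180, at −0.80, Myd88 at −0.26 and Tirap at −0.24. Tlr4 itself was not called with RANKL, at a mean of 193 CPM in both groups (adjusted p = 0.984). With RHC80267 8 of the 12 fell, beside Cd14, and 1 rose, against 23% and 26.9% of all genes. The number fallen was 6 on library totals or without RHC80267 replicate 2. Tlr4 went from 193 ± 5.37 to 127 ± 1.05 CPM (−0.60 ± 0.04, adjusted p = 7.79e-11), Cd180 was at −0.77, Ly86 at −0.59 and Tlr2 at −0.43. With BMS309403 3 of the 12 rose, against 3.51% of all genes: Ly86 and Tlr1 each at 0.27 and Ticam2 at 0.20, and only Ly86 stayed called without RANKL replicate 1. The call of Ticam2 is lost also on library totals or without BMS309403 replicate 3. Tlr6 at 0.15 was not called (adjusted p = 0.128).

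Of 7 genes of haemoglobin and haem handling tested, 5 fell and 2 rose with RANKL, or 1 risen when M-CSF replicate 1 or 2, or RANKL replicate 2 or 3, was left out. Of all genes, 29.8% fell and 31.4% rose. Slc40a1, the iron exporter ferroportin, went from 784 ± 10.9 to 195 ± 15.5 CPM (−2.01 ± 0.06, adjusted p = 7.08e-18), Blvrb, a biliverdin reductase, was at −0.88, Hmox1, haem oxygenase, at −0.87 and Slc48a1, a haem transporter of the endosome, at −0.82. With RHC80267 4 of the 7 rose and 1 fell, against 26.9% and 23% of all genes. Slc40a1 rose by 0.70, Hmox1 by 0.45 and Blvrb by 0.31, and Flvcr1, a haem exporter, was at −0.41, so the haem genes that fell with RANKL and rose with RHC80267 included those of uptake (Cd163), breakdown (Hmox1, Blvrb) and iron export (Slc40a1). With BMS309403, where 3.51% of all genes rose, Slc40a1 rose by 0.38 and Blvrb by 0.30, while Slc48a1 and Hmox1, each at 0.13, were not called (adjusted p = 0.0518 and 0.0553). DESeq2 called these 2 as well, 4 in all. Of 3 relatives of the mannose receptor only Ly75, the endocytic receptor DEC-205, passed the filter. It rose from 1.85 ± 0.198 to 6.36 ± 0.767 CPM with RANKL (1.78 ± 0.15) and was not called with RHC80267 at −0.18 or BMS309403 at −0.21. The medians of the remaining lists with RANKL were −0.06 for apoptotic cell receptors and bridges, −0.19 for the CD14 partners and −0.82 for haem handling.

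**Figure D4:**
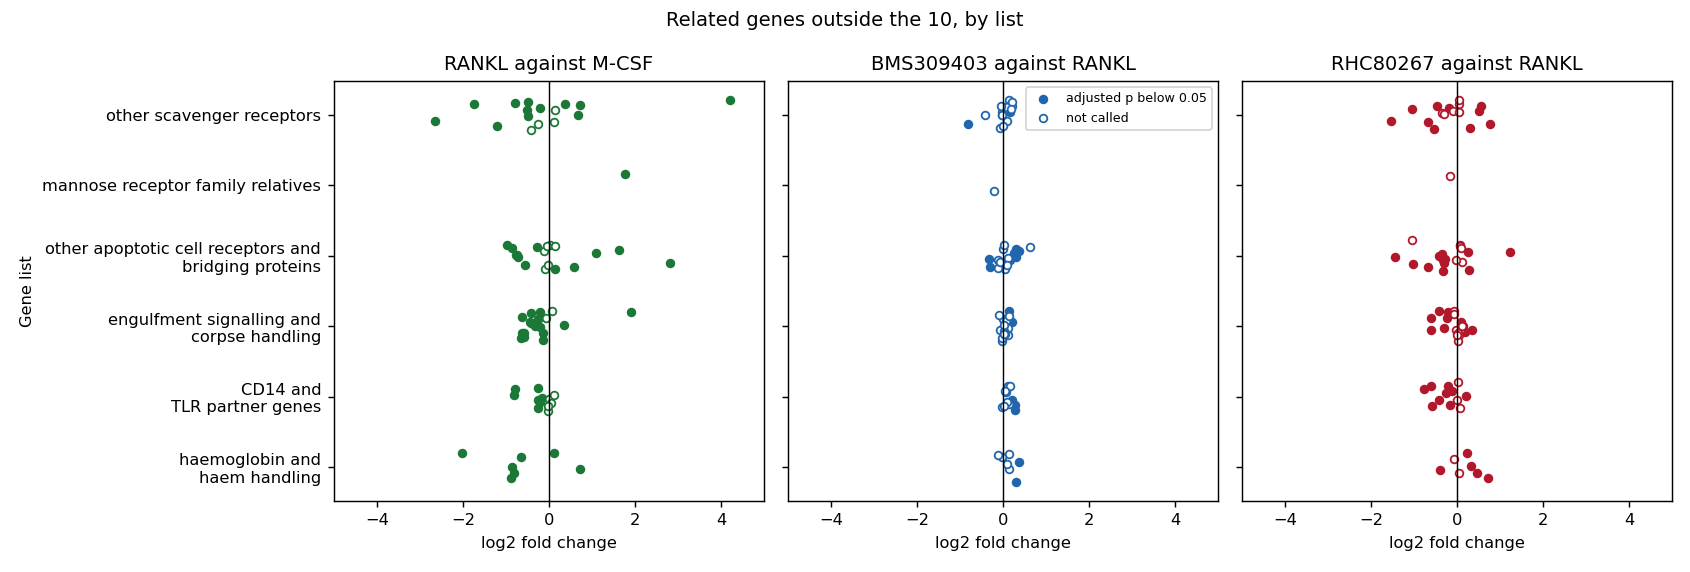
Log2 fold change of each tested gene of 6 lists (rows) in 3 comparisons; filled points have an adjusted p below 0.05 and vertical scatter within a row has no meaning. In the list of engulfment signalling 15 of 19 genes fell with RANKL, and in haem handling 5 of 7 fell with RANKL and 4 of 7 rose with RHC80267.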

How the data were processed

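The authors' deposited counts, called read counts per the file headers, were taken as RSEM expected counts, since in each library 9.49% to 9.89% of them are not whole numbers. The authors' FPKM values were used to compare genes. Their TPM, size-factor-scaled signal, log2 fold changes, p-values and q-values, also deposited, were not used. The tools per the submitters' processing notes were RSEM 1.3.1, Bowtie2 and DESeq2 1.4.5, with order and settings not given in the sources. Positions are on GRCm38.

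Expected counts were rounded to whole numbers, filterByExpr removed 4402 genes, and 12168 were tested in 1 quasi-likelihood fit of 12 libraries by group (edgeR 4.0.16, R 4.3.3, TMM factors, 8 residual degrees of freedom, biological coefficient of variation 0.0371). Each comparison is a contrast, with 2-sided p-values adjusted by Benjamini-Hochberg over all genes tested. CPM uses TMM-adjusted library sizes. The function was tested on simulated data in which fewer genes changed than were called in any comparison here. That test therefore does not show how the fit behaves under changes this broad.

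Alternatives were DESeq2 1.42.0, RLE factors, library totals (chosen after seeing the data), no filter, a stricter filter (1 CPM or more in 3 or more libraries), fits of only the groups compared, a term for the replicate number, and each library left out. The 10 genes, the 6 lists and the markers were chosen with earlier results of these data known. Named list genes are up to 4 per list with the smallest p in RANKL against M-CSF and in each inhibitor against RANKL, of which 1 is not reported here. The motifs, the gene pairs, Tyro3, Timd4 and Emcn were chosen after values were seen. Promoter windows are from RefSeq.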

Additional observations from a re-analysis of the deposited data

How the results depend on the processing

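Of 780 log2 fold changes of single genes over the alternatives, 742 kept their direction and their side of the threshold, 16 lost a call, 10 gained one and 12 changed sign. With RANKL against M-CSF all 130 kept both, and so did the 130 with RANKL and BMS309403 against M-CSF. The number of genes higher with BMS309403 moved from 3 to 5 when only the groups compared were fitted, and ranged from 1 to 4 with 1 library left out. The changes of sign were all in genes not called by edgeR in those comparisons. Axl with BMS309403 ranged from −0.038 to 0.032 with 1 library left out, and was at 0.0027 with DESeq2, 0.0026 with RLE factors, 0.0070 with no filter, 0.0052 with the stricter filter, and 0.0034 with only the groups compared. With 1 library left out, Lrp1 with BMS309403 ranged from −0.131 to 0.0133 (highest without BMS309403 replicate 1) and Cd163 from −0.0819 to 0.280 (lowest without BMS309403 replicate 2). Gas6 with RHC80267 ranged from −0.139 to 0.0167 (highest without RANKL replicate 3), and Mertk with RHC80267 against M-CSF from −0.0278 to 0.0742 (lowest without M-CSF replicate 2). The cause was not tested.

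Same-numbered libraries share only a number: their deviations from the group means correlated at −0.19 to 0.11, and other pairs at −0.13 to 0.12. With a term for the replicate number (a replicate block) the genes higher with BMS309403 numbered 4, because Mertk was called at 0.19 (adjusted p = 0.0388), and no other call of the 10 genes changed. Library totals in place of TMM factors moved the median of all genes by up to 0.07 on the log2 scale. Cd163 had 45 to 70 counts per library with RANKL alone or with BMS309403, which limits its precision there.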

Other observations

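For each of the 10 genes, the other tested genes with the most similar course over the 12 libraries were found by the root mean square difference of centred log2(CPM + 1) values, among 10162 genes that reach a mean of 5 CPM in some group. The courses share libraries and groups, and the likeness is a description. Nearest to Mrc1 was Siglec1, the sialoadhesin of resident macrophages, at a difference of 0.05, with means of 268, 130, 153 and 108 CPM with M-CSF, RANKL, BMS309403 and RHC80267. Its second neighbour was Ms4a14, at 0.09. The genes nearest to Msr1 were Lrrfip1 at 0.06 and Arhgef10l at 0.07. Nearest to Cd14 was Dab2, an endocytic adaptor protein, at 0.08, with 1040, 432, 472 and 266 CPM in the same order of groups, followed by H2-Q4 at 0.11.

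Mertk ran closest to Arntl, which encodes the clock factor BMAL1, at 0.07, with 19.8, 13.1, 14.3 and 19.4 CPM, and then to Arid5b at 0.08. The pairs for the other genes were Abcc3 and Itga6 for Stab1 (0.09 and 0.10), Sh3bp5 and Frmd6 for Axl (0.09 and 0.10), Tmem140 and Igfbp4 for Gas6 (0.12 and 0.12), and Extl3 and Fasn for Lrp1 (0.08 and 0.08). Cd163 had Slc6a9 at 0.20 and Ednrb at 0.21. Slc6a9 had means of 5.10 CPM with M-CSF and 0.332 with RANKL, and Cd163 15.6 and 2.87. Adding 1 CPM before the log narrows changes at such low levels, so this likeness does not mean equal fold changes. Marco stood farthest from its nearest genes, Ednrb at 0.54 and Pou2f2 at 0.56. Ednrb, the endothelin B receptor, was at 89.2 CPM with M-CSF, 20.4 with RANKL, 20.4 with BMS309403 and 50.8 with RHC80267.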
